A study of Homo sapiens with 6 samples.

Results

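Integrins, laminins and tensins are the receptors, basement membrane ligands and tail-binding adaptors through which cells hold on to the matrix around them. All genes of the expression table whose symbol is one of 34 named members were taken, out of 31628 genes in all: 13 integrin alpha genes, 8 integrin beta genes, 10 laminin chain genes and 3 tensin genes. ITGB3 is listed under 2 gene IDs, so that the members fill 35 lines of the table. An integrin is a pair of 1 alpha and 1 beta chain that binds matrix outside the cell and adaptor proteins inside it. Laminins are trimers of an alpha, a beta and a gamma chain and are the main ligands of the integrins at the base of epithelia, including that of the gut. Tensins bind the inner tails of integrin beta chains at focal adhesions, the sites where integrins and actin cables meet.

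RNA was sequenced from HCT116 cells, a human colon cancer line, in which ENL, a chromatin reader encoded by MLLT1, carried an auxin-inducible degron (AID). All 3 groups came from these ENL-AID cells, which stably express AtAFB2, the plant E3 ligase component that binds auxin (IAA) and marks AID-tagged protein for destruction, and whose AID clones had been selected with puromycin and blasticidin. The washout group had 500 um IAA for 3 h, a wash with PBS and then 48 h in normal medium. The IAA group had 500 um IAA for 3 h, and the control group had no IAA. Each group has 2 libraries. The sources used here do not say whether these are separate cultures, so the spread between these libraries may be technical. The spread behind the p-values is also in part pooled over genes, and with voom mostly so. IAA-treated cells without the tagged ENL were not analysed here, and loss of ENL and other effects of IAA cannot be told apart.

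The deposited values are FPKM, fragments per kilobase of gene and per 1000000 reads of the library. The low values show that the kilobases are those of the whole gene span with its introns, so a long gene has a low FPKM even when it holds many reads. LAMA2, whose span is 633429 bases, had FPKM values under 0.1 in all libraries and at least 429 reads in each. Whole reads were therefore recovered from the FPKM, and tests were run on both scales. The main test was limma on log2(FPKM + 0.1), for genes with a mean of at least 0.1 FPKM. The other was limma with voom weights on the recovered reads, for genes with a mean of at least 10 reads. A gene passed where its Benjamini-Hochberg adjusted p, over all genes tested, was under 0.05. The main test covered 20 of the 34 members and the reads 27. LAMA3 was the member just inside the FPKM limit, with a mean of 0.119, and TNS3, with a mean of 0.093 FPKM, was just outside it.

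The totals behind the FPKM ranged between 16442840 and 16770850 reads over the 6 libraries. MLLT1 held 463 and 428 reads in washout libraries, 445 and 402 in IAA libraries and 459 and 480 in control libraries, and did not pass for IAA over control (limma adjusted p = 0.431). The degron removes protein, so this RNA level is no check of the labels. Of 9 colon epithelium markers, 8 reached 10 reads in a library and CDX1 was at 0 in all. Their summed reads were 52430 and 54423 in washout, 44372 and 45245 in IAA and 53740 and 55936 in control libraries. KRT8, KRT18 and KRT19 carry the lower IAA sums. EPCAM had 4062 and 4031 reads in IAA and 4557 and 4352 in control libraries. KRT20 had 27 and 30 in IAA and 61 and 40 in control libraries, so these were lower too. CDX2, with 331 and 353 reads in IAA and 225 and 288 in control libraries, and VIL1, with 593 and 706 in IAA and 556 and 493 in control libraries, lay the other way, and the CDH1 groups overlapped. Of 6 fibroblast markers only COL1A1 reached 10 reads, and the list summed to 226 to 233 reads in washout, 196 to 237 in IAA and 164 to 173 in control libraries. Of 4 endothelial markers only VWF did, with list sums of 11 to 28 reads over all libraries. Of 9 blood markers ITGAM, ITGAX and ITGA2B did, the list summed to 48 to 70 reads, and CD3E was at 0. The part of these differences in the results was not tested.

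In IAA libraries fewer reads came from the tensin TNS4, the integrin beta chains ITGB8 and ITGB4 and the laminin alpha chain LAMA2, and for each of these the washout values overlapped with the control values. TNS4 was at 0.415, ITGB8 at 0.363, LAMA2 at 0.565 and ITGB4 at 0.819 of the control FPKM after 3 h of IAA. LAMA5 at 0.866, ITGA6 at 0.877 and LAMC1 at 0.887 of control passed as lower on the recovered reads and not on FPKM. No member passed as higher in IAA than in control libraries on either scale. In these bulk samples fewer cells of a type and less RNA per cell cannot be told apart.

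The sequences before the starts of members that passed as lower in IAA libraries are shown because their composition differs, for the 4 genes with exactly 1 window in the RefSeq table (GRCh38.p14). ITGA6, with 2 windows, is not shown, and TNS4 and ITGB4 have no window in that table. Each is the 250 bases before the annotated start, written 5′ to 3′ on the gene's strand, and capitals mark motif matches on either strand. ITGB8 lies on the plus strand with its window at chr7:20330650-20330899, LAMA2 on the plus strand at chr6:128882888-128883137, LAMA5 on the minus strand at chr20:62367313-62367562 and LAMC1 on the plus strand at chr1:183023170-183023419.
ITGB8: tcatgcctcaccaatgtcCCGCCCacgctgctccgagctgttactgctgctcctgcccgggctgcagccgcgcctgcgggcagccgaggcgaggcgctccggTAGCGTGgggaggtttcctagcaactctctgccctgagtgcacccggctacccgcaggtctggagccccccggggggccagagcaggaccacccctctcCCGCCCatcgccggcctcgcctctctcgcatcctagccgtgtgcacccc
LAMA2: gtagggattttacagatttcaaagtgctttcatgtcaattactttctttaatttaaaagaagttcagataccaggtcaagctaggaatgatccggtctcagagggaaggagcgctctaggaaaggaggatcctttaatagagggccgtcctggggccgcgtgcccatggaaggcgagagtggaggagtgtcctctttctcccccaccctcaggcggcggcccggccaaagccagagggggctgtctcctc
LAMA5: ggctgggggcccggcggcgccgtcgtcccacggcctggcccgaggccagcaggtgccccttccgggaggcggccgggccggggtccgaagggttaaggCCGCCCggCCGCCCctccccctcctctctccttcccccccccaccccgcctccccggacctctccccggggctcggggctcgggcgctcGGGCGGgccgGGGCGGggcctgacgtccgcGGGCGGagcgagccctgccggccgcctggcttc
LAMC1: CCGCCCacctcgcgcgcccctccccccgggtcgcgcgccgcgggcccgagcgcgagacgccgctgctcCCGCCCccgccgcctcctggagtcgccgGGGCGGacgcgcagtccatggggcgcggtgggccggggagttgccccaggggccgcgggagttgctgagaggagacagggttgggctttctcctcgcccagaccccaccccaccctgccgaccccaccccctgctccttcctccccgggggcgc
The motifs searched were the TATA box TATAAA, the GC box GGGCGG, the AP-1 site TGANTCA, the E-box CACGTG and the element TNGCGTG of the aryl hydrocarbon receptor (AHR). No match of one overlaps a match of another in these 4 windows. The ITGB8 window holds 2 GC boxes and 1 AHR element, the LAMA5 window 5 GC boxes, the LAMC1 window 3 GC boxes and the LAMA2 window no match. The G and C content is 71.2% before ITGB8, 53.2% before LAMA2, 82.8% before LAMA5 and 79.6% before LAMC1, against a median of 58.0% over 35116 windows of the same length. Of all those windows 42.6% hold a GC box, 4.52% the AHR element, 10.7% the TATA box, 6.57% the AP-1 site and 6.34% the E-box. The table holds 38 windows for 25 of the 34 members, of which 20 hold a GC box and 1, that of ITGB8, the AHR element. A match is only these letters in this window.

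Before turning to changes, the members were ranked on a scale per exon length, recovered reads per kilobase of exon and per 1000000 library reads. Over all 6 libraries the highest mean levels on this scale, which assumes that the reads came from exons, were those of ITGB4, at 176, and ITGB1, at 150, and the ranges of these neighbours over the libraries overlapped. ITGA3, a laminin receptor chain, followed at 63.0 and stood clear of its neighbours on both sides. TNS4 averaged 40.6, ITGA6 38.0, ITGA2, the collagen receptor chain, 33.9 and ITGB5, which pairs with ITGAV, 30.1 on this scale. The ranges of these 4 overlapped from each to the next, and that of ITGB5 lay clear of the genes under it. LAMC1 at 19.6, LAMA5 at 18.9, LAMB1 at 17.3, LAMB2 at 16.1 and ITGAV at 15.7 lay within overlapping ranges too, so the alpha, beta and gamma chains that can form a LAMA5 laminin were at like levels per length. LAMB3 averaged 7.02 and ITGA5, the fibronectin receptor chain, 6.02. ITGA7, ITGAE, LAMA2, ITGB8, TNS3, LAMA3 and LAMC3 ran between 4.15 and 1.96, each overlapping with the next, and TNS1 averaged 0.939. ITGA10, LAMA4, ITGB7, ITGA1 and ITGB6 averaged between 0.516 and 0.173 on this scale. The order differs on FPKM, which is per gene span: there ITGA3, with a mean of 17.9, stands above ITGB1, with 8.57, and LAMB2, with 9.22, above TNS4, with 7.63.

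Of the 34 members 7 were near 0. ITGA4, ITGA8, ITGA9, ITGA11, ITGB2, ITGB3 and LAMA1 averaged under 10 reads and entered no test. ITGA9 held 4 to 15 reads per library, ITGB2, the leukocyte beta chain, 3 to 9, ITGB3, the platelet beta chain, 3 to 5 and LAMA1 1 to 6. ITGA11 held 0 to 4, ITGA8 0 to 2 and ITGA4 0 to 1 reads, and the second ITGB3 ID was at 0 in all libraries. These counts are too low to show a difference at this depth. ITGB7, with 8 to 30 reads, shares 42.1% of its exon length with ZNF740 on the opposite strand, and since strand-specific counting is not stated anywhere, its reads are uncertain. ITGB6, with 7 to 23 reads, shares 20.6% with an unnamed transcript and its length could not be matched exactly. The ITGB3 ID with reads shares 51.6% of its exon length with the second ID on the same strand. Its reads rest on 90086 bases, against a span of 57971, and are uncertain too.

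**Figure D1:**
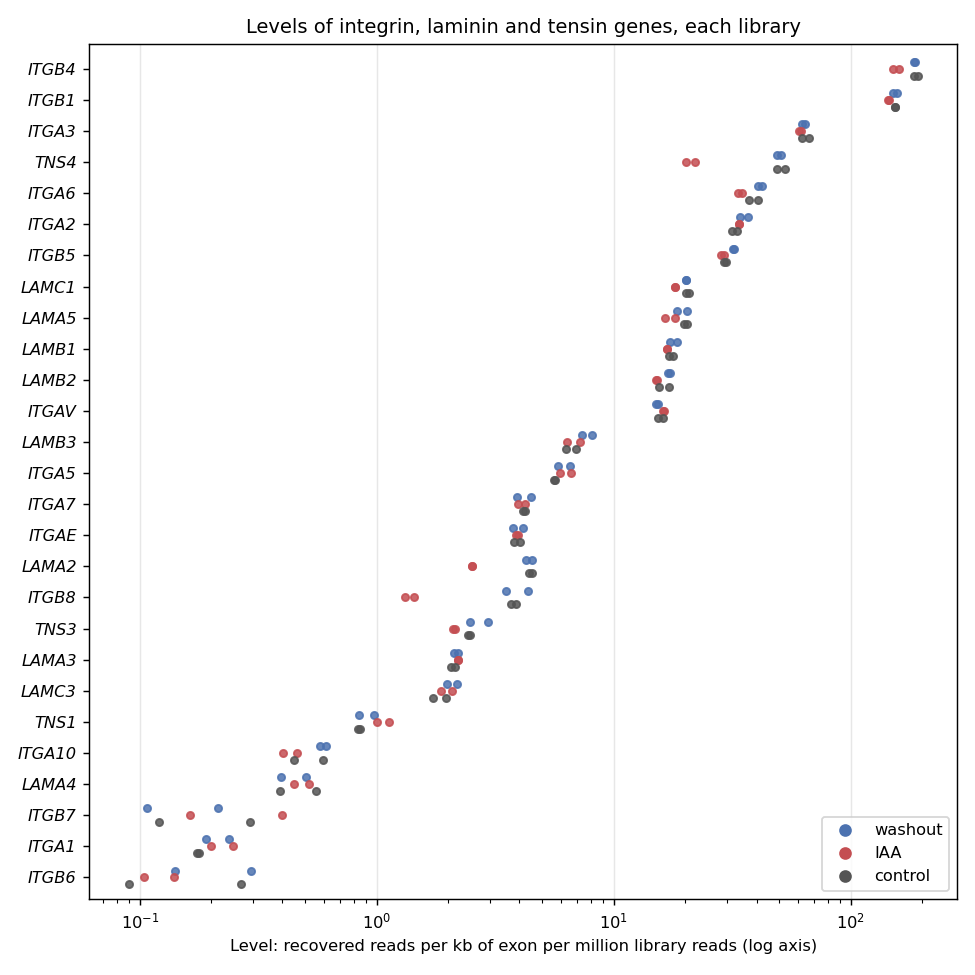
Each point is 1 library, and the horizontal log axis gives recovered reads per kilobase of exon and per 1000000 library reads for the 27 members that averaged at least 10 reads, with washout above IAA above control in each line. TNS4, LAMA2 and ITGB8 are the members whose IAA points stand clearly left of both other groups, while ITGB1, at 150, and ITGA3, at 63.0, show groups that lie close together.

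The first comparison asks what 3 h of IAA did to these genes relative to untreated cells of the same line. On FPKM, 3 of 20 members tested passed as lower and 0 as higher, where 3.77% of all 14809 genes tested passed as lower and 4.4% as higher, or 8.17% in either direction (limma, 6 members at an unadjusted p under 0.05, all of them lower). On the recovered reads, 7 of 27 members passed as lower and 0 as higher, where 10.2% of all 14767 genes tested passed as lower and 13.7% as higher, or 23.9% in all (voom, 10 members at an unadjusted p under 0.05). Over all genes, 3978 of 14809 were at an unadjusted p under 0.05 on FPKM (limma) and 5059 of 14767 on reads (voom). The median log2 change was -0.06 over the members and 0.03 over all genes on FPKM, and -0.06 and 0.04 on reads. Of all genes that passed on FPKM 53.8% were higher, and 43.0% were when values were rescaled to the same sum in every library (TPM) and 42.7% when centred on the median gene.

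Of the integrin alpha genes, 0 of 8 tested on FPKM passed in either direction (limma), beside 8.17% of all genes, and their median log2 change was -0.02. On reads 1 of 9 passed, as lower, beside 10.2% of all genes. That gene was ITGA6, which pairs with ITGB4 or ITGB1 to bind laminin. ITGA6 had 3.33 and 3.48 FPKM in washout libraries, 2.85 and 2.76 in IAA libraries and 3.33 and 3.06 in control libraries. Both IAA values were under all others, by less than the gap seen for TNS4. Its log2 change for IAA over control was -0.18 ± 0.057 (SE) on FPKM (limma adjusted p = 0.144) and -0.19 ± 0.046 on reads (voom adjusted p = 0.00254, and 0.123 without control replicate 1). ITGA3 had 9767 and 10155 reads in IAA libraries and 10160 and 10896 in control libraries, a log2 change of -0.07 on reads (voom adjusted p = 0.142). ITGA2 gave 0.07, ITGAV 0.04, ITGA7 -0.03 and ITGA5 0.15 in log2 change on reads, and none of them passed. ITGAV is the shared alpha chain of the receptors built with ITGB5, ITGB6 and ITGB8, and its 95% interval for IAA over control ran between 0.957-fold and 1.11-fold on reads. ITGA1, a collagen receptor chain, held 54 to 77 reads, while PELO, a gene within its span, held 948 to 1064.

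Among the integrin beta genes, 2 of 4 passed as lower on FPKM (limma), beside 3.77% of all genes. On reads 2 of 6 did (voom), beside 10.2% of all genes. ITGB8, whose pair with ITGAV binds latent TGF-beta, had 0.771 and 0.628 FPKM in washout libraries, 0.255 and 0.235 in IAA libraries and 0.657 and 0.690 in control libraries. In reads these were 1096 and 889 in washout, 356 and 335 in IAA and 928 and 984 in control libraries. Both IAA libraries lay under the others by a wide gap, and the washout libraries lay on either side of the controls. The log2 change for IAA over control was -1.17 ± 0.11 (SE) on log2(FPKM + 0.1), a scale that understates changes of so low a gene (limma adjusted p = 0.017), and -1.46 ± 0.11 on reads (voom adjusted p = 6.74e-13). The limma adjusted p was 0.101 without control replicate 1, 0.111 without control replicate 2, 0.107 without IAA replicate 1 and 0.101 without IAA replicate 2, where 1 group is left with a single library. The log2 change on reads stayed between -1.52 and -1.4 whichever library was left out. The voom p-value itself rests mostly on the spread pooled over genes.

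ITGB4, the beta chain of the laminin receptor in hemidesmosomes, had 34.5 and 34.2 FPKM in washout libraries, 27.9 and 29.4 in IAA libraries and 34.3 and 35.6 in control libraries. The IAA values stood apart from a narrow band of the other 4. Its log2 change for IAA over control was -0.29 ± 0.041 (SE) on FPKM (limma adjusted p = 0.0335) and -0.29 ± 0.030 on reads (voom adjusted p = 2.97e-09). Leaving out any 1 of the 6 libraries ended the limma call, while the log2 change on reads stayed between -0.33 and -0.25. With all 6 libraries that call was also lost without a trend in the fit (limma adjusted p = 0.053). A replicate block gave a limma adjusted p of 0.077. ITGB1, the most widely shared beta chain, had 14377 and 14534 reads in IAA libraries and 15248 and 15429 in control libraries, a log2 change of -0.08 ± 0.030 on reads that did not pass (voom adjusted p = 0.054). ITGB5 gave a log2 change of -0.04 on reads, with a 95% interval between 0.908-fold and 1.04-fold, and did not pass.

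Because chains work in pairs, levels of partners were set against each other within each library, per exon length. For every 100 of ITGAV, ITGB8 stood at 28.2 and 23.5 in washout libraries, 8.77 and 8.18 in IAA libraries and 22.9 and 25.3 in control libraries. The groups did not overlap between IAA and either other group. Of the summed level of the 8 beta genes, ITGB8 made up 1.16% and 0.935% in washout, 0.438% and 0.395% in IAA and 0.992% and 1.02% in control libraries. ITGB4 made up 49.8% and 49.0% in washout, 46.2% and 47.5% in IAA and 49.8% and 50.7% in control libraries, and ITGB1 40.3% and 41.5% in washout, 44.6% and 43.2% in IAA and 41.1% and 40.4% in control libraries. ITGB4 thus held the larger share in every library and by a smaller margin in IAA libraries. ITGB4 per 100 of ITGA6 was 461 and 438 in washout, 436 and 475 in IAA and 459 and 518 in control libraries, so that the groups overlapped for this pair. These are transcript ratios, described without a test.

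Of the laminin genes, 0 of 7 tested on FPKM passed for IAA over control (limma), beside 8.17% of all genes in either direction. On reads 3 of 9 passed as lower and 0 as higher (voom), beside 10.2% of all genes lower and 13.7% higher. LAMA2, the alpha chain best known from the basement membrane of muscle and nerve, had 741 and 776 reads in washout libraries, 429 and 437 in IAA libraries and 755 and 784 in control libraries. In FPKM this was 0.0700 and 0.0736 in washout, 0.0412 and 0.0411 in IAA and 0.0718 and 0.0738 in control libraries. The IAA libraries were close to each other and far under the rest. The log2 change for IAA over control was -0.82 ± 0.090 (SE) on reads (voom adjusted p = 8.28e-09). It stayed between -0.84 and -0.8 with any 1 library left out. LAMA2 missed the 0.1 FPKM limit of the main test, and without that limit limma gave an adjusted p of 0.0339. Its reads rest on a length of 633389 bases, the nearest to the annotated span that gave whole reads. In the same way the reads of ITGB4 rest on 36492 bases, against a span of 36491, those of ITGA6 on 79100, against 78929, and those of LAMA3 on 265633, against 266780. The span of LAMA2 also holds the pseudogenes BMPR1APS1 and MESTP1. BMPR1APS1 held 158 and 187 reads in washout, 180 and 153 in IAA and 196 and 192 in control libraries. MESTP1 held 234 and 262 in washout, 200 and 210 in IAA and 237 and 208 in control libraries. Neither passed for IAA over control (limma adjusted p of 0.362 and 0.533), and whether any of their reads were also counted for LAMA2 was not tested.

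LAMA5, the main laminin alpha chain under adult epithelia, had 4.89 and 4.43 FPKM in washout libraries, 3.98 and 4.38 in IAA libraries and 4.77 and 4.89 in control libraries. Its second washout and second IAA values lay close together. LAMA5 changed by -0.20 ± 0.073 (SE) in log2 on FPKM (limma adjusted p = 0.177) and by -0.21 ± 0.049 on reads (voom adjusted p = 0.0014, and 0.0797 without IAA replicate 1). LAMC1, the gamma chain of most laminins, had 1.39 and 1.38 FPKM in washout libraries, 1.25 and 1.25 in IAA libraries and 1.43 and 1.38 in control libraries. Its IAA libraries were under all others by a small and even margin. LAMC1 changed by -0.16 ± 0.037 in log2 on FPKM (limma adjusted p = 0.0789) and by -0.17 ± 0.049 on reads (voom adjusted p = 0.00832). The voom adjusted p of LAMC1 was 0.0956 without control replicate 1 and 0.053 without IAA replicate 1.

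LAMA2 per 100 of LAMA5, again per exon length, was 21.1 and 24.4 in washout, 15.2 and 13.8 in IAA and 22.1 and 22.3 in control libraries. The 2 alpha chains thus fell unequally, LAMA2 by more, in both IAA libraries. LAMA3 and LAMB3, chains of the laminin that anchors hemidesmosomes, gave log2 changes of 0.07 and 0.03 on reads, and LAMB1 gave -0.06, LAMB2 -0.11, LAMC3 0.10 and LAMA4, a chain of vessel walls, 0.05. None of these passed (voom adjusted p of 0.19 or more). The interval for LAMA3 ran between 0.922-fold and 1.19-fold, which leaves out a fall as large as that of LAMA2. LAMA4, with 76 to 107 reads, had an interval between 0.752-fold and 1.42-fold.

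**Figure D2:**
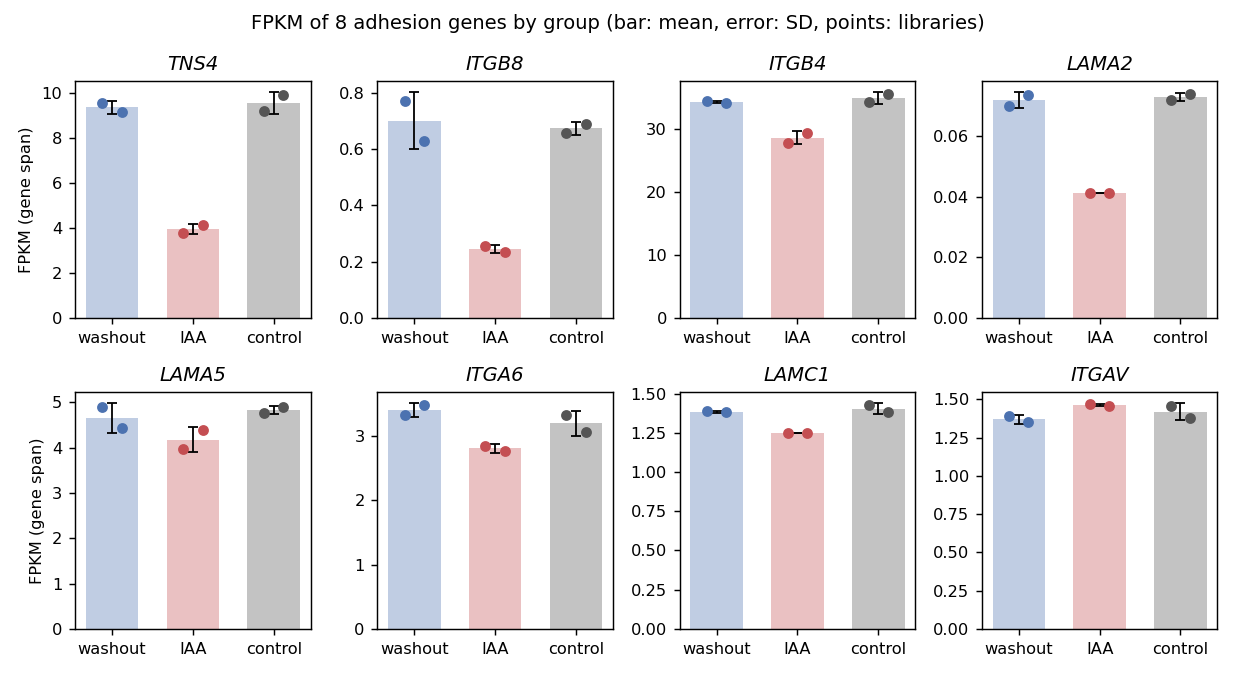
Bars give the mean FPKM per gene span of 2 libraries in washout, IAA and control cells, error bars the SD and points the libraries, for the 7 members that passed on reads for IAA over control and for ITGAV, each with its own axis starting at 0. TNS4, ITGB8 and LAMA2 fall to 0.415, 0.363 and 0.565 of control in IAA libraries, the fall of ITGB4 to 0.819 is shallower, and the ITGAV groups lie close together.

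Of the tensin genes, TNS4 was the one tested on FPKM, and it passed as lower, beside 3.77% of all genes. TNS4, also called cten, lacks the actin-binding part of the other tensins and sits at focal adhesions of epithelial cells. It had 9.57 and 9.17 FPKM in washout libraries, 3.79 and 4.13 in IAA libraries and 9.21 and 9.89 in control libraries. In reads these were 4121 and 3935 in washout, 1608 and 1785 in IAA and 3943 and 4272 in control libraries. The washout and control libraries interleaved, and both IAA libraries were far under any of them. The log2 change for IAA over control was -1.25 ± 0.064 (SE) on FPKM (limma adjusted p = 0.00749) and -1.27 ± 0.055 on reads (voom adjusted p = 4.78e-19). Without control replicate 2 the limma adjusted p was 0.0545, and without each other library it was under the threshold.

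TNS3 and TNS1, which link integrin tails to actin, did not pass for IAA over control and pointed in opposite directions. TNS3 held 581 and 485 reads in washout, 415 and 414 in IAA and 475 and 488 in control libraries, a log2 change of -0.21 ± 0.10 (SE) for IAA over control (voom adjusted p = 0.149). TNS1 held 265 and 229 reads in washout, 269 and 308 in IAA and 225 and 232 in control libraries, a log2 change of 0.34 ± 0.13 (voom adjusted p = 0.059). Its second IAA library was the highest of the 6, and its first lay close to the first washout library. The TNS1 reads rest on a length of 203220 bases, the nearest to its annotated span of 234395 bases that gave whole reads, so they are less certain than those of TNS3 and TNS4, which matched their spans.

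**Figure D3:**
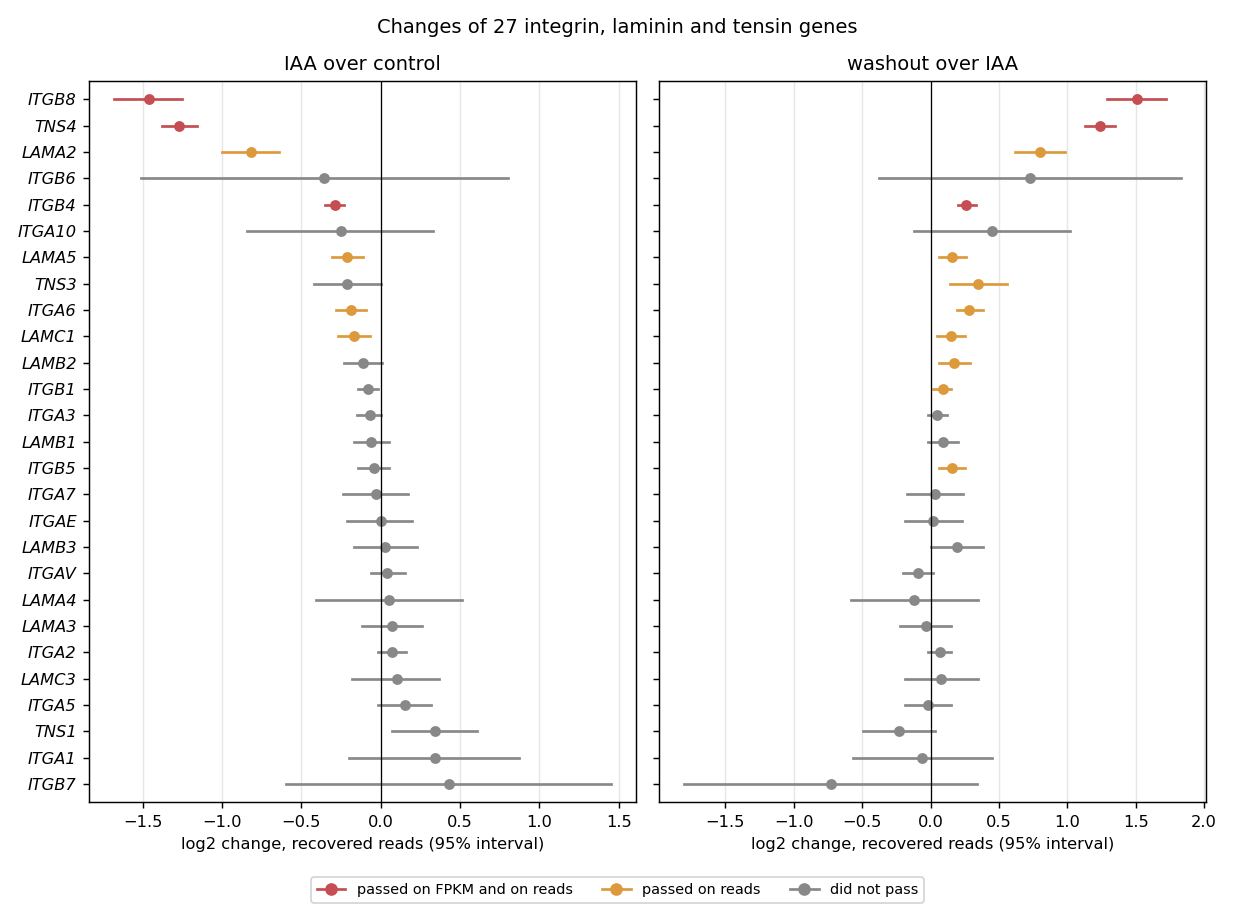
Points give the log2 change on recovered reads, with 95% intervals, of the 27 members for IAA over control on the left and washout over IAA on the right, in the order of the left panel. Red points passed on FPKM and on reads, orange points on reads and grey points on neither, and members with few reads, such as ITGB6 and ITGB7, have the widest intervals.

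The second comparison sets cells 48 h after the washout against cells at 3 h of IAA. The groups also differ by the PBS wash and the 48 h in normal medium. Effects of these and of IAA removal cannot be told apart. This comparison shares the IAA libraries with the first, so that changes of opposite sign in the 2 comparisons are not independent observations. On FPKM 3 of 20 members passed as higher and 0 as lower, where 4.33% of all genes tested passed as higher and 4.15% as lower, or 8.47% in all (limma, 7 members at an unadjusted p under 0.05). On reads 11 of 27 passed as higher and 0 as lower, where 11.6% of all genes passed as higher and 13.5% as lower, or 25.1% in all (voom, 11 members at an unadjusted p under 0.05). Over all genes, 4111 of 14809 were at an unadjusted p under 0.05 on FPKM (limma) and 5198 of 14767 on reads (voom). Of all genes that passed on FPKM 51.1% were higher, and 63.4% were on the TPM scale. The median log2 change was 0.11 over the members and -0.01 over all genes on FPKM, and 0.09 and -0.02 on reads.

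TNS4 was 2.36 times as high in FPKM in washout as in IAA libraries, a log2 change of 1.22 ± 0.064 (SE) (limma adjusted p = 0.00765, and 0.0599 and 0.0581 without washout replicates 1 and 2). ITGB8 was 2.86 times as high, a log2 change of 1.21 ± 0.11 on log2(FPKM + 0.1) and 1.51 ± 0.11 on reads (limma adjusted p = 0.0164, voom adjusted p = 2.66e-13). For ITGB8 the limma call was lost, with adjusted p between 0.062 and 0.0991, without any 1 library other than washout replicate 2. ITGB4 was 1.20 times as high, a log2 change of 0.26 ± 0.041 (limma adjusted p = 0.0382). That call was lost without any 1 library. With all 6 libraries it was lost without a trend in the fit (limma adjusted p = 0.0608) and with a replicate block (limma adjusted p = 0.0801). With 1 library left out, the log2 change on reads was 1.18 to 1.31 for TNS4 and 1.36 to 1.66 for ITGB8. For ITGB4 it was 0.23 to 0.3.

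LAMA2, which the main test did not cover, was 1.74 times as high in washout as in IAA libraries, a log2 change of 0.80 ± 0.090 (SE) on reads (voom adjusted p = 1.54e-08). ITGA6 was 1.21 times as high, a log2 change of 0.28 ± 0.046 on reads (voom adjusted p = 1.5e-05) and 0.27 ± 0.057 on FPKM (limma adjusted p = 0.0661). With 1 library left out, the log2 change on reads was 0.77 to 0.84 for LAMA2 and 0.25 to 0.31 for ITGA6. LAMA5 at 1.11 times, LAMC1 at 1.11 times and LAMB2, a beta chain that can stand in for LAMB1, at 1.13 times the IAA FPKM passed on reads (voom adjusted p of 0.0157, 0.0229 and 0.0252). TNS3 at 1.28 times, ITGB5 at 1.11 times and ITGB1 at 1.06 times the IAA FPKM did so too (voom adjusted p of 0.00968, 0.0107 and 0.0343). Each of these 6 lost its voom call without at least 1 library. For LAMA5 the adjusted p was 0.316 without IAA replicate 1 and 0.310 without washout replicate 1. For TNS3 it was 0.219 without washout replicate 1 and 0.0574 without IAA replicate 2. For ITGB5 it was 0.124 without IAA replicate 1 and 0.0662 without washout replicate 1. For LAMB2 it was 0.115 without IAA replicate 1, 0.0691 without IAA replicate 2 and 0.110 without washout replicate 1. For LAMC1 it ranged between 0.0632 and 0.104 without any 1 of the IAA or washout libraries. For ITGB1 it ranged between 0.0516 and 0.229 without any 1 library other than washout replicate 1. ITGB1, ITGB5, TNS3 and LAMB2 passed in this comparison and had not passed for IAA over control, and the difference between the 2 comparisons was not tested.

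The third comparison sets washout against untreated control cells. On FPKM 0 of 20 members passed, where 0.182% of all genes tested did, 0.101% as higher and 0.081% as lower (limma, 1 member, ITGB5, at an unadjusted p of 0.0464). On reads 0 of 27 passed, where 0.623% of all genes did, 0.298% as higher and 0.325% as lower (voom, 4 members, ITGA2, ITGA6, ITGB5 and LAMB3, at an unadjusted p under 0.05, all of them higher). Over all genes, 1265 of 14809 were at an unadjusted p under 0.05 on FPKM (limma) and 1635 of 14767 on reads (voom). For washout over control the 95% interval on reads was 0.919-fold to 1.05-fold for TNS4, 0.923-fold to 1.16-fold for ITGB8, 0.943-fold to 1.02-fold for ITGB4 and 0.883-fold to 1.1-fold for LAMA2. These intervals leave out falls as large as those in IAA libraries, and a p that misses the threshold does not show that levels were equal. LAMB3 stood at 1.17-fold of control in washout libraries, with an interval between 1.02 and 1.33 (voom adjusted p = 0.364), and ITGA2 had an interval between 1.03 and 1.17 (voom adjusted p = 0.198).

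The genes around these families were read in the same way from 3 lists, each chosen with earlier results of these data known. Of 24 matrix ligands and basement membrane partners, 9 were tested on FPKM, and 2 passed as lower and 0 as higher for IAA over control (limma), beside 3.77% of all genes lower and 4.4% higher. THBS1, the matrix protein thrombospondin, had 16.2 and 17.5 FPKM in washout, 10.9 and 10.1 in IAA and 18 and 17.9 in control libraries, and its log2 change for IAA over control was -0.77 (limma adjusted p = 0.0141). FN1, fibronectin, the ligand of the ITGA5 receptor, had a log2 change of -0.41 (limma adjusted p = 0.0381). On reads 16 of the 24 were tested, of which 2 passed as lower and 1, the basement membrane collagen COL4A3, as higher (voom), beside 10.2% of all genes lower and 13.7% higher.

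Of 42 adhesion site adaptors and kinases, 37 were tested on FPKM, and 6 passed as lower and 0 as higher for IAA over control (limma), beside 3.77% of all genes lower and 4.4% higher. CAV1, the coat protein of caveolae, had 6.35 and 6.49 FPKM in washout, 2.85 and 3.12 in IAA and 6.18 and 6.05 in control libraries, and its log2 change was -1.01 (limma adjusted p = 0.00779). ACTN1, an actin crosslinker, gave -0.36, PXN, the scaffold paxillin, -0.25, and ZYX, the tension-sensing zyxin, -0.32 (limma adjusted p of 0.022, 0.0337 and 0.0348). On reads 40 of the 42 were tested, of which 12 passed as lower and 3 as higher, beside 10.2% and 13.7% of all genes. Of 17 membrane partners of integrins and laminins, 16 were tested on FPKM, and 2 passed as lower and 1 as higher, beside the same 3.77% and 4.4% of all genes. SLC3A2, which binds integrin beta tails and carries amino acid transporters, had 8.62 and 8.76 FPKM in washout, 13.2 and 12.5 in IAA and 8.71 and 8.97 in control libraries, and its log2 change was 0.53 (limma adjusted p = 0.0152). DST, a linker of ITGB4 to keratin in hemidesmosomes, gave -0.53, and CD151, a tetraspanin that binds laminin receptors, -0.20 (limma adjusted p of 0.0183 and 0.0448). On reads 16 of the 17 were tested, of which 4 passed as lower and 3 as higher (voom), beside 10.2% and 13.7% of all genes. The 3 higher were SLC3A2, DAG1, with a log2 change of 0.17, and PLEC, with 0.09 (voom adjusted p of 0.00428 and 0.00629 for DAG1 and PLEC). For washout over IAA on FPKM (limma), 2 of 9 matrix genes tested passed as higher and 0 as lower. Of 37 adaptors and kinases 6 passed as higher and 0 as lower, and of 16 membrane partners 2 and 1. Over all genes tested 4.33% passed as higher and 4.15% as lower. The median log2 change for IAA over control on FPKM was 0.04, -0.04 and 0.03 over the 3 lists, against 0.03 over all genes.

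**Figure D4:**
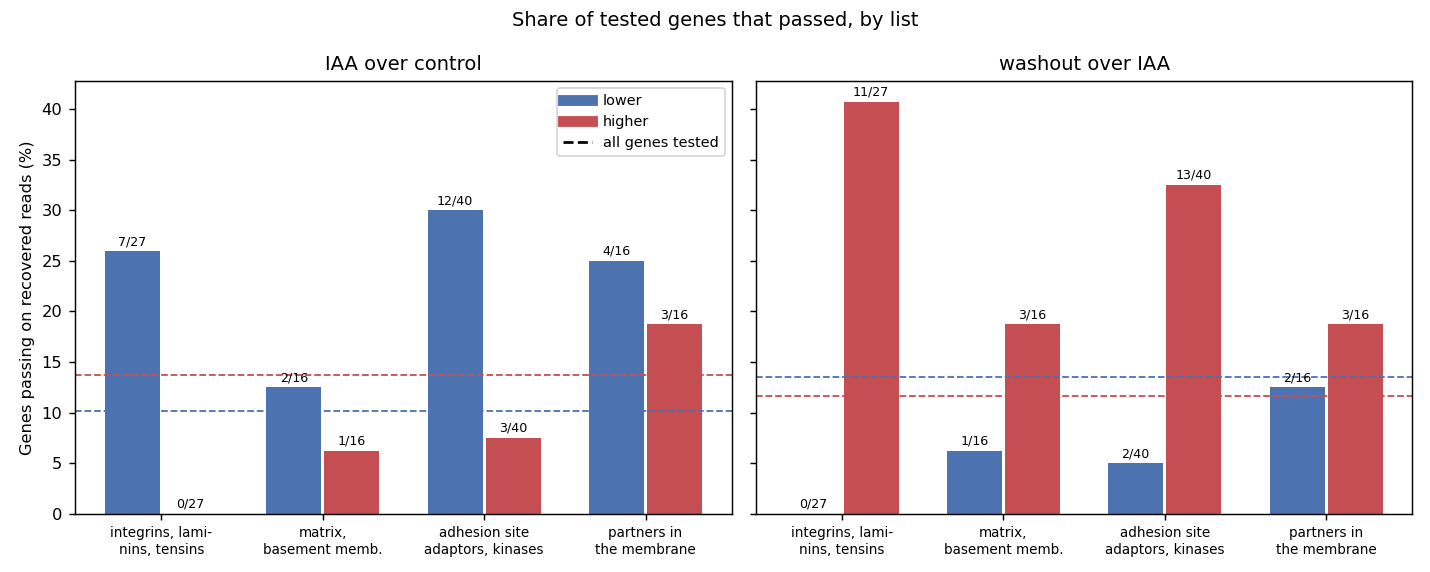
Bars give the percentage of tested genes that passed on recovered reads, lower in blue and higher in red, for the 4 gene lists in IAA over control on the left and washout over IAA on the right, and dashed lines give the same over all genes tested. On the left 7 of 27 integrins, laminins and tensins are lower with none higher, beside dashed lines at 10.2% lower and 13.7% higher. On the right 11 of 27 are higher with none lower, beside dashed lines at 11.6% higher and 13.5% lower.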

How the data were processed

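Poly(A)-selected RNA of 6 libraries, 3 groups of 2, was sequenced. The authors deposited 1 table of FPKM per gene and library. The submitters' processing notes name hg19, HISAT, Bowtie2, HTSeq and edgeR with no role or version, and neither the counted feature nor strand is given in the sources used here. From the low values, the FPKM divided by the whole gene span: with GENCODE 29 spans (GRCh38, used only for lengths and names, and holding 94.3% of the gene IDs) 77.9% of 4720 low genes gave whole reads, against 2.5% with exon lengths, at a tolerance of 0.02 reads. Whole reads were recovered for 99.69% of 21707 genes above 0. The sum of recovered reads exceeds the library totals, and the cause was not tested.

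Differences were fitted with limma 3.58.1 in R 4.3.3 (eBayes with trend, all 6 libraries, 3 residual degrees of freedom, two-sided, Benjamini-Hochberg over all genes tested) on log2(FPKM + 0.1) for genes with a mean of at least 0.1 FPKM, with voom on recovered reads as an alternative. In both fits the spread of each gene was drawn toward that of all genes. That pooled part weighed 1.32 degrees of freedom with limma and 30.2 with voom, beside 3 residual. A voom p-value thus rests mostly on the spread pooled over genes, not on the replicates of that gene alone. A fold change on the log2(FPKM + 0.1) scale understates the change of low genes. Replicates of a group differed beyond counting noise (chi-square per gene 2.71 to 3.31), so no library was counted as deposited again. The other alternatives were other pseudocounts and filters, TPM, median centring, no trend, a replicate block and leaving out each library. The members and gene lists were chosen with earlier results of these data known. All members were reported, those that passed for IAA over control or washout over IAA with values in all libraries, and from each other list at most 4 genes that passed for IAA over control, those with the smallest adjusted p. COL4A3, DAG1 and PLEC were named in addition, after their values were seen. Promoter windows came from RefSeq (GRCh38.p14). In the annotation, exon overlaps of the 7 members lower on reads in IAA libraries came to at most 2.7% of the exon length for any 1 other gene. Since the counted feature is not given, overlaps of whole spans may matter too. The LAMA5 span overlaps ADRM1, with 2625 to 3129 reads per library, and the ITGB4 span GALK1, with 438 to 554. Whether any of these reads were also counted for the members was not tested.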

Additional observations from a re-analysis of the deposited data

How the results depend on the processing

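Genes passing for IAA over control numbered 1210 with limma on FPKM, 3531 with voom on recovered reads, 3407 with voom and a replicate block, and 116 to 175 when 1 library was left out, and members passing numbered 3, 7, 7 and 0 to 2. For washout over IAA the genes numbered 1255, 3701, 3558 and 114 to 154, and the members 3, 11, 11 and 0 to 1. For washout over control 27 genes passed with limma, 9 with a pseudocount of 0.01, 0 with a mean FPKM of at least 1 (754 at an unadjusted p under 0.05), 0 with that limit and a pseudocount of 1 (750 likewise), 52 with no filter, 4 on TPM, 92 with voom, 75 with voom and the block, and 52 to 84 with 1 library left out, and no member did under any of these. The cause of these differences in count was not tested. Leaving out a library leaves a group with 1, which is assumed to vary like the other groups.

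Same-numbered libraries did not deviate together (correlations of 0.05, 0.058 and 0.007 across genes), so the numbers are not taken as pairs. With the replicate block limma called 73 genes and 1 member, TNS4, for IAA over control, 77 genes and 1 member, also TNS4, for washout over IAA, and 0 genes for washout over control (1134 at an unadjusted p under 0.05). Voom with the block, and voom with each library left out, were chosen after seeing the data. None of the 24 changes recomputed under the alternatives, those of 12 members in 2 comparisons, reversed. Members with under 10 mean reads are limited by depth.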
